A study of Saccharomyces cerevisiae with 4 samples.

Results

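This report describes 10 yeast genes of gluconeogenesis and the glyoxylate cycle, with the transporters and activators that belong to them. They were taken by systematic name from the 7126 rows of the expression table. They are the enzyme genes ICL1 (YER065C), MLS1 (YNL117W), FBP1 (YLR377C), PCK1 (YKR097W) and ACS1 (YAL054C), the transporter genes JEN1 (YKL217W) and SFC1 (YJR095W), and the regulator genes CAT8 (YMR280C), SIP4 (YJL089W) and ADR1 (YDR216W). Polyadenylated RNA came from Saccharomyces cerevisiae BY4741, a haploid laboratory strain that carries deletions in several marker genes, among them LEU2 and URA3. All 4 libraries came from cells with a CRISPR interference system, in which a guide RNA directs a Cas9 protein without nuclease activity to block transcription at 1 site. In 2 libraries (scrambled A and B) the guide was scrambled, and in 2 (+116 A and B) it was the guide 116, directed against the noncoding RNA at GAL10. All cells grew in synthetic glucose medium lacking leucine and uracil, from an optical density of 0.1 to 0.4, a condition in which gluconeogenic genes are known to be repressed, and both groups share it. The labels do not say whether the letters A and B stand for separate cultures, so p-values measure the spread between these libraries, which may be technical.

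Gluconeogenesis makes hexose phosphates from compounds such as lactate, glycerol and ethanol, and the glyoxylate cycle feeds it by turning acetyl units into malate and succinate without loss of carbon. Yeast growing on glucose does not need either route, and the genes are known as textbook cases of glucose repression. The kinase Snf1, active when glucose is short, relieves repression by Mig1, and the activators Cat8, Sip4 and Adr1 then switch the enzyme and transporter genes on. Cat8 and Sip4 bind the carbon source-responsive element of these promoters. Adr1 is best known as the activator of the alcohol dehydrogenase gene ADH2 and of peroxisomal genes.

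Reads assigned to genes numbered from 34215480 to 40628383 per library. A mean of at least 5 normalized reads over the 4 libraries was required for testing, which 6277 genes met, among them all 10 described here. A normalized read count is a gene's reads divided by the authors' size factor for the library. At the targeted locus GAL1, which lies on the strand of the noncoding RNA, had 411 and 469 normalized reads in scrambled A and B and 133 and 116 in +116 A and B. GAL10, on the other strand, went the other way, with 94.96 and 113 against 192 and 171 normalized reads (log2 fold 0.80, limma adjusted p = 0.0403). The 10 genes together took between 0.0116% and 0.0133% of the reads of a library, and without ADR1 between 0.00544% and 0.0056%.

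**Figure D1:**
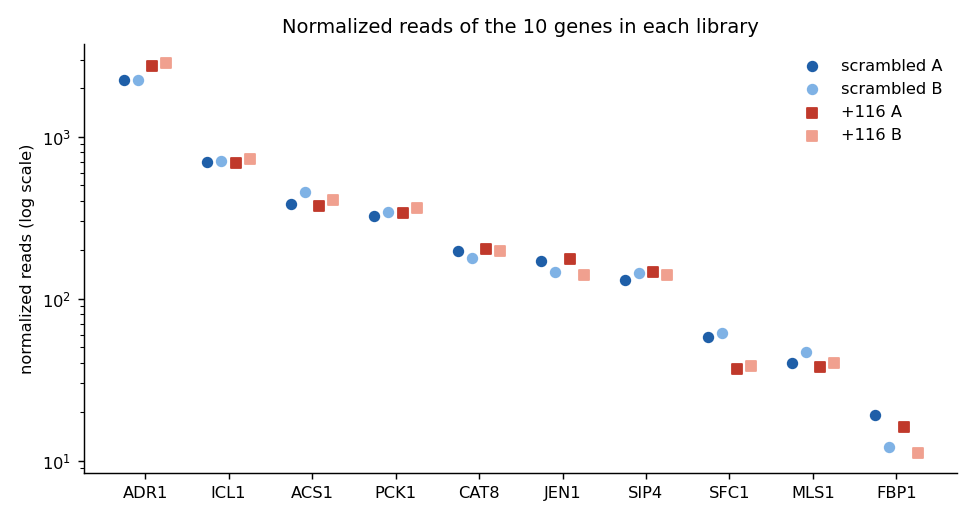
Normalized reads (vertical axis, logarithmic) of each of the 10 genes in the 4 libraries, circles for the scrambled guide and squares for +116. ADR1 is the most abundant at 2227 to 2836 normalized reads and FBP1 the least at 11.1 to 19.0, and only ADR1, SFC1 and CAT8 have guides that do not overlap.

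Of the 10 genes, ADR1 was called higher with the +116 guide and none was called lower, where a call is a limma adjusted p under 0.05. Over all genes tested, 0.510% were called higher and 0.335% lower. By unadjusted p under 0.05, 2 of the 10 genes passed, ADR1 and SFC1, against 21.8% of all genes tested. The groups did not overlap in 3 of the 10 genes. ADR1 and CAT8 were higher in both +116 libraries, and 27.3% of all tested genes were separated in this direction. SFC1 was lower in both +116 libraries, as were 26.3% of all tested genes. With 10 genes, 1 call is too few to compare with these shares. The median log2 fold of the 10 genes was 0.0018, and that of all tested genes was 0.0013.

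The enzymes particular to the glyoxylate cycle were measured at very different depth. ICL1, which encodes isocitrate lyase, the entry enzyme of the cycle, had 695 and 713 normalized reads in scrambled A and B and 689.9 and 725 in +116 A and B. All 4 values lay close together and the groups overlapped, with means of 704 ± 13.2 (scrambled) and 708 ± 24.9 (+116; SD, n = 2). The log2 fold (+116 minus scrambled) was 0.0070 with a standard error (SE) of 0.0738 and a limma adjusted p of 0.965. Its 95% interval of −0.15 to 0.17 corresponds to between 0.900-fold and 1.12-fold, the narrowest interval of the enzyme genes. MLS1, which encodes malate synthase, the enzyme that uses the glyoxylate made by isocitrate lyase, had 39.8 and 47.1 normalized reads with the scrambled guide and 38.0 and 40.2 with +116. The 2 groups overlapped, at a log2 fold of −0.14 with an interval of −0.63 to 0.34 (limma adjusted p = 0.743). These values rest on 38 to 44 reads, and the exact Poisson interval of a single library, such as 28.9 to 53.4 normalized reads in scrambled A, was wider than the whole range of the 4 libraries. Poisson intervals cover counting error only.

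The gluconeogenic enzymes were likewise uncalled. PCK1, which encodes phosphoenolpyruvate carboxykinase, the enzyme that takes oxaloacetate back towards hexose, had 322 and 345 normalized reads in scrambled A and B and 337 and 363 in +116 A and B. The groups overlapped, with a log2 fold of 0.07 (SE 0.0959, limma adjusted p = 0.705) and an interval of −0.14 to 0.28. FBP1, which encodes fructose bisphosphatase, the enzyme that works against phosphofructokinase, was the lowest of the 10 genes. It had 21 and 11 reads in scrambled A and B and 16 and 11 in +116 A and B, which are 19.0, 12.1, 16.0 and 11.1 normalized reads. Both A libraries were above both B libraries and the guides overlapped. The log2 fold was −0.17 (SE 0.391, limma adjusted p = 0.828), and its interval of −1.02 to 0.67 ran from 0.495-fold to 1.59-fold, the widest of the 10 genes. ACS1, which encodes the acetyl-CoA synthetase isoform of cells without glucose, had 385 and 454 normalized reads with the scrambled guide and 371 and 405 with +116. The groups overlapped at a log2 fold of −0.11 (SE 0.101, limma adjusted p = 0.563). The scrambled mean of 419 ± 48.3 (SD, n = 2) had a larger SD than the +116 mean of 388 ± 24.3 (SD, n = 2), and the interval of the log2 fold ran from −0.32 to 0.11.

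The transporter genes differed from each other. JEN1, which encodes the plasma membrane carrier of lactate and pyruvate, had 172 and 146 normalized reads in scrambled A and B and 177 and 141 in +116 A and B. The group means were 158.8 ± 18.5 and 158.9 ± 25.6 (SD, n = 2), and the log2 fold was −0.0035 with an interval of −0.32 to 0.31 (limma adjusted p = 0.994). In JEN1 the letters differed more than the guides, A being 1.18-fold above B with the scrambled guide and 1.26-fold with +116. The exact Poisson intervals of A and B overlapped with each guide. They were 148 to 198 and 122 to 173 normalized reads in scrambled A and B, and 152 to 205 and 118 to 166 in +116 A and B. SFC1, which encodes the mitochondrial carrier that exchanges cytosolic succinate for fumarate, had 57.9 and 61.4 normalized reads with the scrambled guide and 37.0 and 38.2 with +116. These are 64, 56, 37 and 38 reads, and both +116 libraries were below both scrambled libraries. The scrambled mean of 59.6 ± 2.46 compared with a +116 mean of 37.6 ± 0.864 (SD, n = 2), a ratio of 0.631. The log2 fold of −0.65 (SE 0.208) was the largest of the 10 genes in size, but its limma adjusted p of 0.112 did not pass the threshold, and its interval ran from −1.10 to −0.20. The exact Poisson intervals of the libraries overlapped, with 44.6 to 73.9 normalized reads in scrambled A and 26.0 to 51.0 in +116 A. These intervals show the counting error of single libraries, and their overlap does not compare the groups. SFC1 was also uncalled by edgeR (adjusted p = 0.108), and its adjusted p over 14 alternatives ranged from 0.0890 to 0.661.

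**Figure D2:**
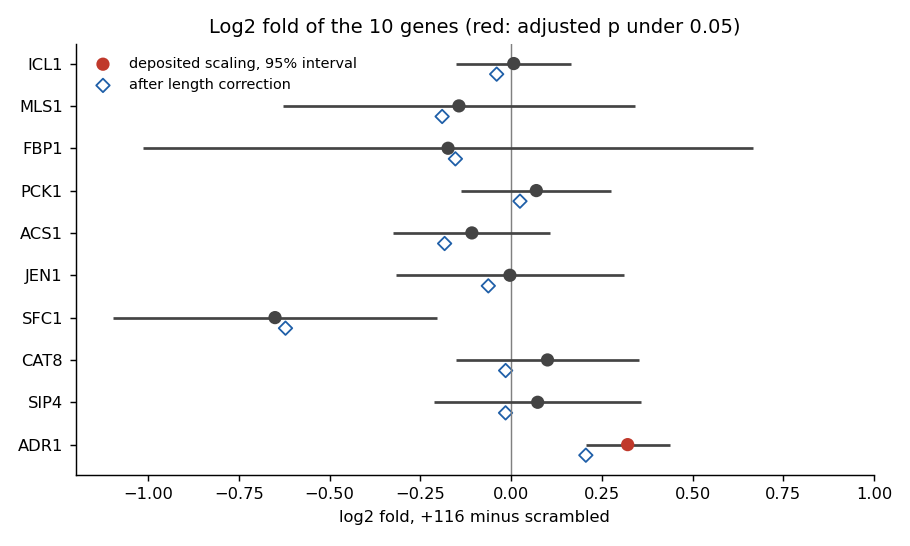
Log2 fold (+116 minus scrambled, horizontal axis) of the 10 genes from the limma fit, with 95% intervals as lines, and the same value after a correction for coding length as open diamonds. The intervals of ADR1 (0.21 to 0.44) and SFC1 (−1.10 to −0.20) do not include 0, and ADR1, in red, is the gene called.

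Among the regulators, ADR1 was the called gene. ADR1, which encodes a zinc finger activator, had 2227 and 2243 normalized reads in scrambled A and B and 2748 and 2836 in +116 A and B. The libraries within a group were close to each other and the groups were well apart. The mean rose 1.25-fold, from 2235 ± 11.4 (scrambled) to 2792 ± 62.5 (+116; SD, n = 2). The log2 fold was 0.32 with an SE of 0.0537, an interval of 0.21 to 0.44 and a limma adjusted p of 0.0271. It was called by edgeR (adjusted p = 0.0102) and DESeq2 (adjusted p = 0.0022) too. Left without scrambled A, limma gave a log2 fold of 0.32 and an adjusted p of 0.147, and without scrambled B 0.33 and 0.527. In both of these fits 0 genes of all tested were called by limma, where 1341 and 448 had an unadjusted p under 0.05.

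CAT8 and SIP4, which encode zinc cluster activators of the carbon source-responsive element, were uncalled and far less abundant. CAT8 had 198 and 177 normalized reads in scrambled A and B and 204 and 198 in +116 A and B. The +116 values were the higher, but +116 B exceeded scrambled A by less than 1 read. The log2 fold was 0.10 (SE 0.118, limma adjusted p = 0.650) with an interval of −0.15 to 0.35. SIP4, whose own transcription is known to depend on Cat8, had 130.2 and 144 normalized reads with the scrambled guide and 147 and 141 with +116. The groups overlapped and the log2 fold was 0.07 (SE 0.132, limma adjusted p = 0.782), with an interval of −0.21 to 0.36. Per kb of coding length, CAT8 was at 0.716 to 0.88 of the level of SIP4 over the 4 libraries, and ADR1 was 12.2-fold to 15.5-fold above CAT8.

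ADR1 is also a long gene, and expression differences between the guides moved with gene length. Its coding length is 3972 bp, in the longest of 10 bins of equal size made from the 5800 tested genes with a coding length. In this bin the median log2 fold was 0.11 and 2.41% of genes were called higher. Within it 70.7% of the genes were higher in both +116 libraries, so the separation of the ADR1 groups is common among genes of its size. Its log2 fold exceeded that of 99.1% of them. After a correction for length the log2 fold of ADR1 was 0.21 and its limma adjusted p was 0.233, in a fit that called 0 genes higher and 4 lower and gave 802 an unadjusted p under 0.05. CAT8, the longest of the 10 genes at 4302 bp, lay near the middle of the same bin, above 43.4% of its genes, and had a log2 fold of −0.015 after the correction. SIP4, at 2490 bp, also went from 0.07 to −0.016. SFC1 is short, at 969 bp, and 0.517% of the genes in its bin had a lower log2 fold. Its value after the correction was −0.62 (limma adjusted p = 0.256). In their own bins the share was 1.03% for ACS1, 3.62% for MLS1, 4.31% for FBP1 and 19.1% for JEN1. For ICL1, SIP4 and PCK1 it was 36.0%, 44.1% and 67.2%. What makes the fold move with length was not tested.

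**Figure D3:**
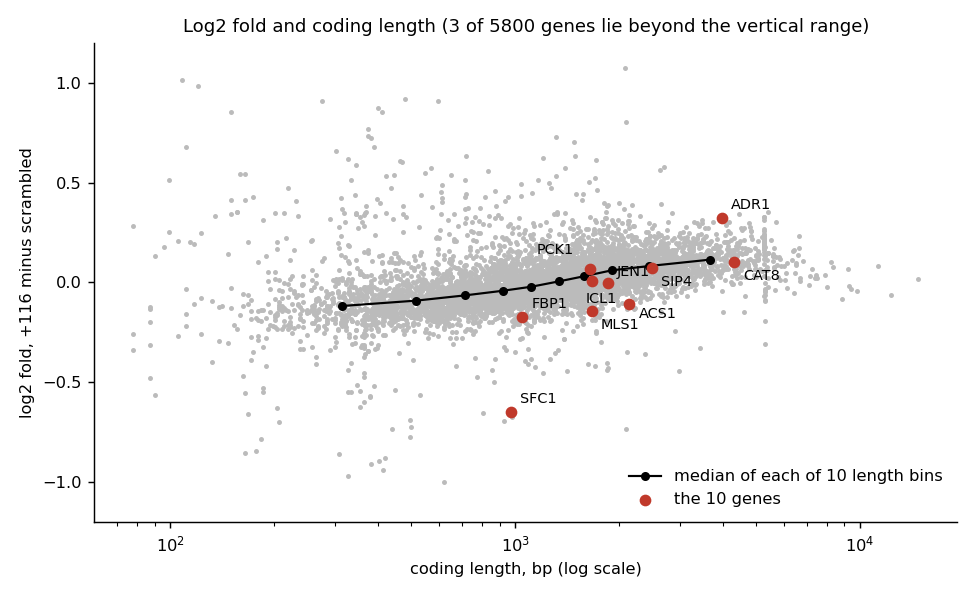
Log2 fold (+116 minus scrambled, vertical axis) against coding length in bp (horizontal axis, logarithmic) for 5800 tested genes in grey, the median of each of 10 length bins in black and the 10 genes in red. The medians climb from −0.12 in the shortest bin to 0.11 in the longest, and 3 genes lie outside the drawn range. ADR1 lies above most genes of its length, and SFC1, ACS1, MLS1 and FBP1 lie low among theirs. Of these only ADR1 was called by limma, and the bins do not match genes on read depth.

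Levels can be compared between genes only per length, and on that scale the 10 genes stood in the lower part of the expression range. The order of the means over 4 libraries, in normalized reads per kb of coding length, began with ADR1 at 633 and ICL1 at 422, followed by PCK1 at 207 and ACS1 at 189. JEN1 was at 85.8, SIP4 at 56.4, SFC1 at 50.2 and CAT8 at 45.2. MLS1 at 24.8 and FBP1 at 13.9 came last. Neighbours whose ranges over the 4 libraries overlapped, so that their means do not settle an order, were PCK1 and ACS1, SIP4 and SFC1, and SFC1 and CAT8. Per kb, SFC1, with few reads, was above SIP4 and CAT8 in both scrambled libraries and below them in both +116 libraries. Of the tested genes with a length, 22.7% had a lower level per kb than ADR1, 14.5% than ICL1 and 8.03% than PCK1. For FBP1 this share was 0.586%. Thus isocitrate lyase and malate synthase, which act in turn in the same cycle, differed in transcript level, with ICL1 15.1-fold to 18.1-fold above MLS1 per kb in the 4 libraries. PCK1 was 10.8-fold to 20.8-fold above FBP1, a range set largely by the few reads of FBP1.

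The glycolytic enzymes that run against these steps, and the other acetyl-CoA synthetase, had far higher levels per kb. CDC19, which encodes the pyruvate kinase opposed by PCK1, was 929-fold to 976-fold above PCK1 per kb in the 4 libraries. PFK1 and PFK2, the phosphofructokinase subunits opposed by FBP1, were 637-fold to 1160-fold and 441-fold to 857-fold above it. ACS2, which encodes the acetyl-CoA synthetase of cells growing on glucose, was 33.1-fold to 42.0-fold above ACS1. In each of these pairs the excess was present in all 4 libraries, with either guide. None of these 4 genes was called by limma between the guides, at log2 folds of 0.04 to 0.13. The ratios also reflect how abundant the counterparts are. Of the tested genes with a length, 99.7% had a lower level per kb than CDC19, 91.7% than PFK1, 88.6% than PFK2 and 87.1% than ACS2.

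**Figure D4:**
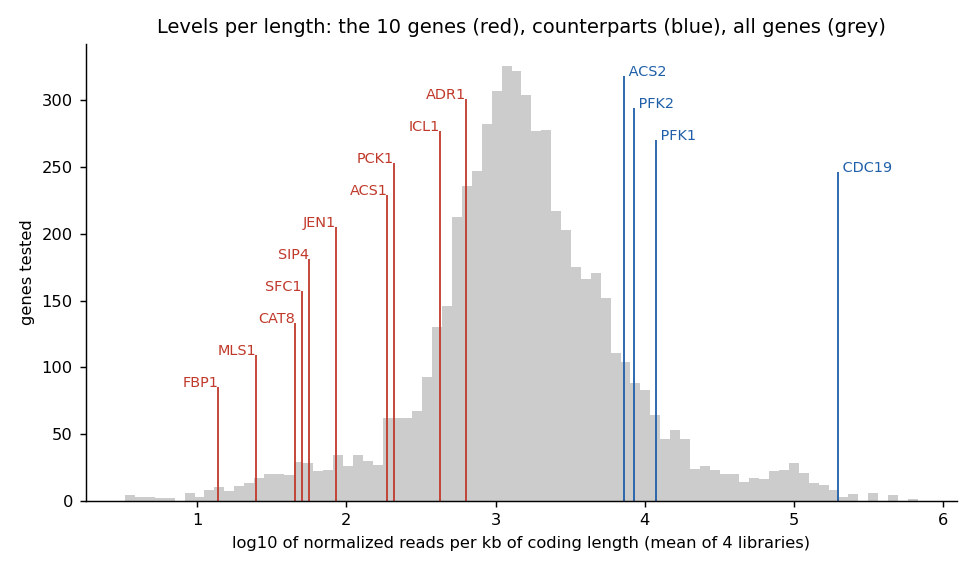
Number of tested genes (vertical axis) by the log10 of normalized reads per kb of coding length (horizontal axis, mean of 4 libraries), with the 10 genes in red and their counterparts in blue. FBP1 at 13.9 and MLS1 at 24.8 reads per kb lie in the low tail, ADR1 at 633 is the nearest to the bulk of the genes, and CDC19, PFK1, PFK2 and ACS2 lie above the bulk.

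The 10 genes did not vary together. In ICL1, MLS1, PCK1, ACS1, SFC1 and ADR1 library B was above library A with both guides, and in FBP1, JEN1 and CAT8 A was above B with both. The letters thus had the same order with both guides in 9 of the 10 genes, against 43.2% of all tested genes. With 10 genes from the same 4 libraries, this is too few to compare with that share. Some of the orders rest on differences within counting error. For ICL1 the exact Poisson intervals were 646 to 746 normalized reads in scrambled A and 660 to 770 in scrambled B. The size of these differences varied: ICL1 A was at 0.974 and 0.951 of B with the scrambled guide and +116, ACS1 A at 0.849 and 0.915, MLS1 A at 0.845 and 0.945, and FBP1 A, with few reads, at 1.58 and 1.45. SIP4 alone changed order. No source says that a letter marks a shared culture, day or batch, and over all genes the difference between A and B with one guide was barely related to that with the other (Pearson r = −0.041 across 6277 genes, which share the same libraries). The mean profile of the 10 genes, each centred on its own mean on the log2 scale, was 0.034 and 0.017 in scrambled A and B and −0.003 and −0.048 in +116 A and B. The tested genes outside the 10 with the closest profiles over the 4 libraries were MPE1, PRS2 and YDL144C, at Euclidean distances of 0.00167, 0.00383 and 0.00719 log2 units. The distances of the 10 genes to their own mean ran from 0.108 for ICL1 to 0.607 for SFC1. MPE1, PRS2 and YDL144C were picked as the closest of all tested genes, so their distances cannot be compared with these.

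Other genes of the pathway were examined in 4 lists of 54 different genes, all of them tested, and limma called 0 of these. By unadjusted p under 0.05, 12 of the 54 passed, a share near the 21.8% of all tested genes. With edgeR 3 were called (PYC1, YAT2 and GUT2), where 1.69% of all genes were called higher. With DESeq2 3 were called (PYC1, PYC2 and YAT2), where 3.09% of the 3235 genes given an adjusted p were called higher. All of these were higher with +116. The list of other enzymes held 13 genes with a median log2 fold of 0.09, 11 above 0 and 2 below. As background for the counts of all 4 lists, 3169 of the 6277 tested genes were above 0 and 3108 below. This background is not matched for coding length. The median length was 1368 to 1560 bp in the 4 lists, and 1218 bp over all tested genes with a coding length. Of the 10 genes 5 were above 0 and 5 below. Among the other enzymes, the lowest p-values belonged to PYC1, PYC2 and ALD4. PYC1 and PYC2 encode the pyruvate carboxylases that supply oxaloacetate to PCK1, and ALD4 is a mitochondrial aldehyde dehydrogenase gene. PYC1 had 10719 and 12181 normalized reads with the scrambled guide and 13569 and 14046 with +116. Both +116 values were above the scrambled ones, at a log2 fold of 0.27 and a limma adjusted p of 0.05002, just above the threshold. It passed in limma with TMM scaling (adjusted p = 0.0452) and upper-quartile scaling (0.0385). PYC2 stood at 0.23 (limma adjusted p = 0.0764) and ALD4 at 0.15 (limma adjusted p = 0.156). PYC1 and PYC2 are similar copies that may share reads, and both are long, at 3537 and 3543 bp. After the length correction their log2 folds were 0.16 and 0.12 (limma adjusted p = 0.368 and 0.517).

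The list of other genes known to depend on Cat8 or Adr1 held 16 genes with a median log2 fold of 0.08, 14 above 0 and 2 below. Limma called 0 of them. Their median coding length was 1554 bp, against 1218 bp for all tested genes with a coding length. With the length correction their median log2 fold was 0.06. Whether length has a part in these counts was not tested. YAT2, a carnitine acetyltransferase gene, had 2677 and 2426 normalized reads with the scrambled guide and 3347 and 2947 with +116, a log2 fold of 0.30 (limma adjusted p = 0.0549). GUT2, which encodes the mitochondrial glycerol phosphate dehydrogenase, had 1478 and 1441 with the scrambled guide and 1719 and 1749 with +116, a log2 fold of 0.25 (limma adjusted p = 0.0558). In both genes the groups did not overlap, and neither passed the limma threshold with the deposited scaling. YAT2 passed it with TMM scaling (limma adjusted p = 0.0472) and upper-quartile scaling (0.0396), and GUT2 did not (0.0509 and 0.0533). After the length correction YAT2 and GUT2 stood at 0.20 and 0.18 (limma adjusted p = 0.292 and 0.233). At 2772 and 1950 bp, they fall in length bins where 56.6% and 48.6% of genes were higher in both +116 libraries. ADH2, the best known target of Adr1, stood at a log2 fold of −0.013 (limma adjusted p = 0.935), with 6402 and 5323 normalized reads in scrambled A and B and 5925 and 5648 in +116 A and B. ADH2 resembles the abundant alcohol dehydrogenase gene ADH1, and its count may hold reads of that gene.

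**Figure D5:**
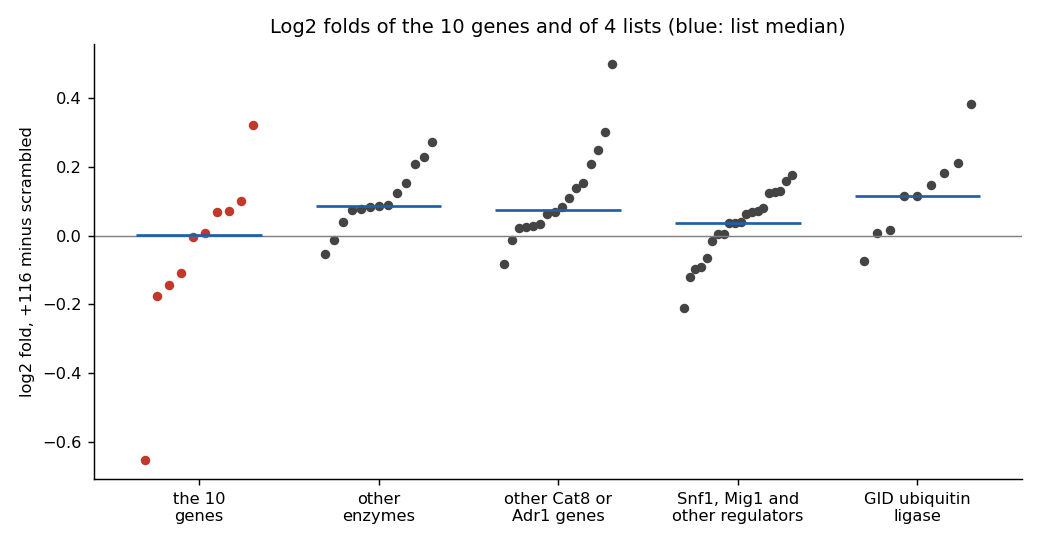
Log2 folds (+116 minus scrambled, vertical axis) of the 10 genes in red and of the members of the 4 lists in dark grey, each list sorted by value, with its median as a blue line. The list medians are 0.09, 0.08, 0.04 and 0.12 from left to right, beside 0.0018 for the 10 genes, whose lowest point is SFC1 at −0.65.

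The regulators upstream, with Snf1 and its subunits and kinases, Mig1 and its relatives, and the Hap complex of respiratory genes, formed a list of 20 with a median log2 fold of 0.04, 14 above 0 and 6 below. REG1, which encodes the subunit that directs the phosphatase Glc7 to Snf1, stood at a log2 fold of 0.16 (limma adjusted p = 0.111), and SAK1, a kinase that activates Snf1, 0.18 (limma adjusted p = 0.112). HAP3 had −0.21 (limma adjusted p = 0.145). The repressor gene MIG1 had 0.08 and its relatives MIG2 and MIG3 −0.10 and −0.09, and SNF1 had 0.13. The list of the GID ubiquitin ligase, which degrades gluconeogenic enzymes when glucose returns, held 9 genes with a median of 0.12, 8 above 0 and 1 below. GID7 (0.21, limma adjusted p = 0.0921), VID30 (0.15, limma adjusted p = 0.187) and VID28 (0.12, limma adjusted p = 0.281) had its lowest p-values. With the length correction the medians of the 4 lists, in the order given, were 0.05, 0.06, 0.03 and 0.05. In the same fit REG1, SAK1 and HAP3 had 0.056, 0.065 and −0.13, and GID7, VID30 and VID28 had 0.13, 0.047 and 0.019.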

How the data were processed

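The deposited values, in a single table for the 4 libraries, are a signal that cannot be negative, made by the authors from gene reads by dividing each library by its size factor. DESeq2, Picard 1.84, Bowtie2, TopHat2 2.0.8, TopHat, Trimmomatic 0.30 and bcl2fastq 1.8.4 are listed without a role in the submitters' processing notes. What genome build, annotation, read counter and strand setting were used is not given in the sources used here, and coordinates and sequences are therefore not printed. Whole reads could be recovered: 100.0% of the values in every column were multiples of a step within 1e-06 of a read, at size factors of 1.11, 0.913, 1.00 and 0.994 (scrambled A, B, +116 A, B).

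Genes with a mean of at least 5 were fitted on log2(value + 1) in limma 3.58.1 (R 4.3.3), using its mean-variance trend. This scale understates folds of low genes. Tests were two-sided, with Benjamini-Hochberg adjustment over all genes tested and a threshold of 0.05. The fit was checked on simulated data. Alternatives were edgeR 4.0.16 and DESeq2 1.42.0 on recovered reads, other scalings, pseudocounts and filters, each library left out, a block on the letters, and a loess correction for coding length per library, with lengths from RefSeq R64. By locus tag 6013 of 7126 rows had a coding length, and no gene of that annotation overlaps any of the 10 genes. The members, the 4 lists and the tests were chosen with earlier results of these data known. Named genes were the 10 genes, from each list the 3 with the lowest p and any called gene, the counterparts by level, and the 3 closest profiles. ADH2, MIG1, MIG2, MIG3 and SNF1 were named in addition after their values were seen.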

Additional observations from a re-analysis of the deposited data

How the results depend on the processing

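Over 16 alternatives the call of ADR1 was kept in 10, and its log2 fold stayed between 0.21 and 0.34. With limma without a trend, with no filter on low values, and with the length correction alone or with a replicate block, 0 of the 10 genes were called higher. The adjusted p of ADR1 was then 0.353, 0.0669, 0.233 and 0.343. When 1 library was left out the number called higher was 0 to 1. The causes were not tested. The median log2 fold of the 10 genes was −0.052 with the length correction, −0.052 with the length correction and the replicate block, 0.069 with a filter at a mean of 50, which leaves out MLS1, FBP1 and SFC1, and −0.0012 to 0.0445 with 1 library left out. Signs changed in 6 of the 10 genes, none of them called. With upper-quartile scaling ICL1 had −0.014, where the median of all genes was −0.019. With the length correction ICL1, CAT8 and SIP4 had −0.040, −0.015 and −0.016, and the same with the block. With 1 library left out ICL1 ranged from −0.029 to 0.043, FBP1 from −0.48 to 0.13, JEN1 from −0.17 to 0.16 and ACS1 from −0.23 to 0.0092. DESeq2 gave no adjusted p for 9 of the 10 genes.

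Of all genes 32 were called higher and 21 lower. Upper-quartile scaling gave 50 and 77, TMM scaling 51 and 37, edgeR 106 and 60, DESeq2 100 and 80. They numbered 0 and 1 without a trend (868 at an unadjusted p under 0.05), 2 and 5 with no filter, 82 and 55 with the filter at 50, 0 and 4 with the length correction, and 0 and 0 with that and the block, where 736 had an unadjusted p under 0.05. Leaving out 1 library, with the lone library of its group assumed to vary like the others, gave 0 to 207 higher and 0 to 104 lower. No label says that the letters pair the libraries, and over all genes they hardly deviated together (r = −0.041). With the replicate block the counts were 170 and 88, and ADR1 had a limma adjusted p of 6.6e-04. Depth limits FBP1, MLS1 and SFC1, with 11 to 64 reads per library.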
